A study of Mus musculus with 13 samples.

Results

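The deposited tables of differential 5-hydroxymethylcytosine (5hmC) listed 183 regions whose nearest gene was one of 10 enzymes that build, sulfate or desulfate glycosaminoglycan chains, out of 181833 regions over 3 tables. The members were every row that the authors had assigned to Xylt1, to the chondroitin sulfate genes Chsy1, Chsy3, Csgalnact1, Chst11 and Chst3, or to the heparan sulfate genes Ndst1, Ext1, Sulf1 and Sulf2. There were 35 member regions among 43378 listed for WT DMM against WT sham, 70 among 65969 for MUT DMM against WT DMM, and 78 among 72486 for MUT DMM against WT sham. A row entered a table only because the authors' test had found a difference there, so a count of rows describes where differences were listed, and regions without a listed difference were not analysed here.

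The samples were knee cartilage of male B6;129S4 mice, taken 6 weeks after surgery. WT sham and WT DMM mice were TET1+/+, and MUT DMM mice carried the genotype given as TET-/-, with 3 samples labelled in each of these groups. The labels do not say which part of the gene the mutant allele lacks. DMM stands for a knee surgery in which, per the labels, the medial meniscus was removed, and in sham knees the joint was opened only. Each control knee was that of the opposite leg, so sham and DMM samples of the same genotype may share animals, but the deposited values carry no animal or replicate number. The labels differ on age, which is 3 to 4 months at one place and 4 to 6 months at another. MUT sham samples and the background control, which was prepared without the glucosylation enzyme, were not analysed here, so the effect of surgery within the mutant could not be given. The method cuts DNA at CCGG with MspI before and after glucose is added to 5hmC; a site whose 5hmC is glucosylated withstands the second cut and is read. The read count at a region therefore depends on 5hmC at its CCGG sites.

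Glycosaminoglycans are long sugar chains attached to core proteins such as aggrecan, and the charge of their sulfate groups holds water in cartilage. Chondroitin sulfate and heparan sulfate chains start from the same linker, whose first xylose is added by xylosyltransferases such as Xylt1. Csgalnact1 then starts a chondroitin chain, Chsy1 and Chsy3 extend it, and Chst11 and Chst3 add sulfate at different positions of its N-acetylgalactosamine. Ext1 is part of the heparan sulfate polymerase, Ndst1 replaces N-acetyl groups of the chain by sulfate, and Sulf1 and Sulf2 remove sulfate from finished heparan sulfate outside the cell. In tissues, 5hmC is made from 5-methylcytosine by TET enzymes and is commonly found in gene bodies and enhancers.

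Of the 10 genes, 4 had a RefSeq promoter window, which spans 250 bases before to 50 bases after a transcription start; Sulf2 had 2 such windows. Listed regions overlapped the windows of Chst11 and of Sulf2, and all of them were rows of MUT DMM against WT DMM that were higher in MUT DMM. Both windows are printed 5′ to 3′ on the gene's strand because the assay reads only CCGG, which is shown in capitals. The motif CCGG reads the same on both strands. The Chst11 window lies at chr10:82985247-82985546 on the plus strand of GRCm38.p6 and holds 7 CCGG sites, 6 of them inside listed regions. The Sulf2 window lies at chr2:166155236-166155535 on the minus strand and holds 5 sites, 4 of them inside a listed region.
Chst11: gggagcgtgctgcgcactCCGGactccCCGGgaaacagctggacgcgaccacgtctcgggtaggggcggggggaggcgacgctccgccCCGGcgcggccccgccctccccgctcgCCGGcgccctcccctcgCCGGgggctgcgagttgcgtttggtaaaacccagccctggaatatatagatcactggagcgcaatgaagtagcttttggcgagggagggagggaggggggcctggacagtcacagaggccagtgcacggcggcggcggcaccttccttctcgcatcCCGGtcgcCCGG
Sulf2: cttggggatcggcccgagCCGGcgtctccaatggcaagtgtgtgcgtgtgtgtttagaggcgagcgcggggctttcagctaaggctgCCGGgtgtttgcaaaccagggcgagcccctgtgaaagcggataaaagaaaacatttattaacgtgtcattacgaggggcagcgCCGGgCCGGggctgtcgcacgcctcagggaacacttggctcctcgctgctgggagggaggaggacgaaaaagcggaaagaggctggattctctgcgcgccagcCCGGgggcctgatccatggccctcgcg
Of the 32851 RefSeq promoter windows of this length, 52.8% held at least 1 CCGG and 7.82% held 5 or more, with a median of 1 site. Both printed windows therefore offer more sites to the assay than most. A site in a window says where the assay could read and does not give the 5hmC of that site.

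Values are normalized counts per region as deposited, scaled by the authors per library and per table, so levels are compared within a table and never between tables. The tables held 8 distinct libraries, because the MUT DMM cells listed the same values in 2 of their 3 places at every region. MUT DMM was counted as 2 libraries. The deposited MUT DMM means counted the repeated values as a separate library. How the authors' p treated them is not given, so it may count 1 library as 2 in both mutant comparisons. Library names give the order of the values in a deposited cell. Among WT DMM libraries the first-listed one had few reads and is called nearly empty: it read 0 in 95.8% of all regions of the surgery table and in 35 of its 35 member regions, where 1 read was worth 15.7 normalized counts, and in 41 of the 70 member regions of MUT DMM against WT DMM, where 1 read was worth 9.56. The MUT DMM library that was not repeated is called the shallow one: 1 read was worth 3.55 normalized counts against WT DMM and 9.45 against WT sham. A value of 0 allows up to 3 reads, which in the nearly empty library is 47.0 normalized counts in the surgery table and 28.7 in the other, and in the shallow MUT DMM library 10.7 and 28.3. Intervals of this kind cover counting error only. Regions are called higher or lower where the authors' adjusted p was under 0.05, which held for all 183 member regions, with the direction taken from the means over distinct libraries. limma, fitted over all regions of a table, gives a p for each region beside the authors' own. In WT DMM against WT sham its standard error was 1.32 at every member region, so there it carried no spread particular to a region. It compares means of log2 values, which at some rows went the other way from the group means. Examples are Chsy1 chr7:66102741-66102940, called higher in WT DMM (-0.62), and Csgalnact1 chr8:68597021-68597500, called lower in MUT DMM than in WT DMM (1.02). No exact permutation test was run, since 3 against 3 libraries cannot give a two-sided p below 0.1 and 2 against 3 none below 0.2.

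**Figure D1:**
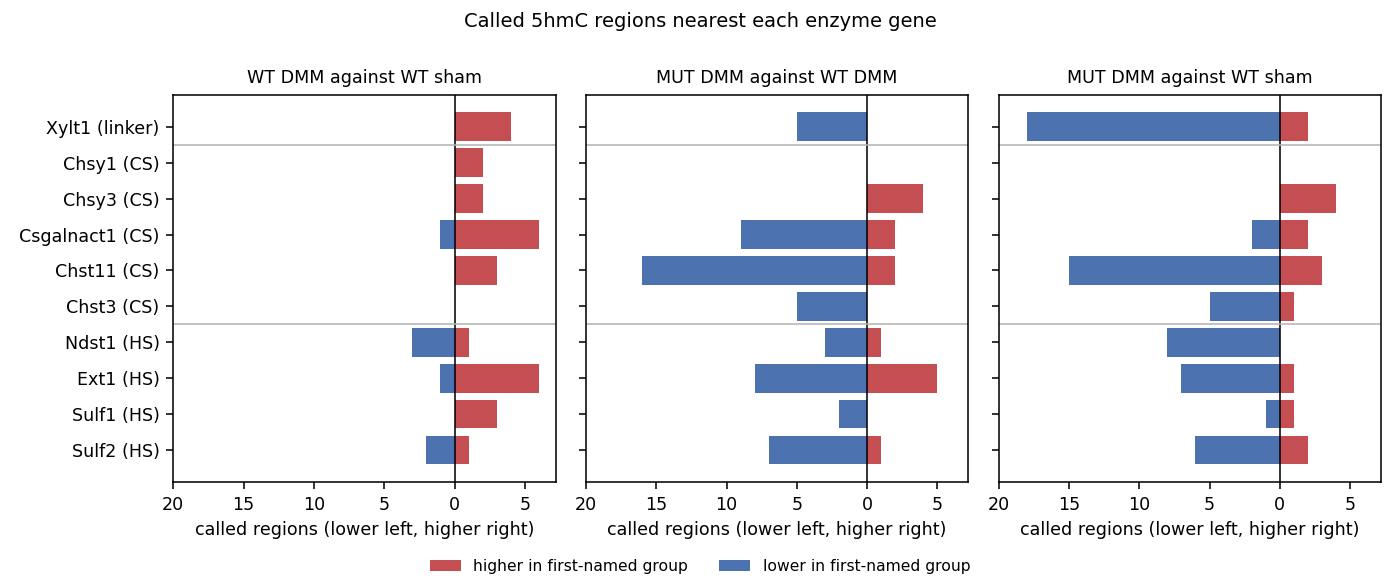
Number of listed regions nearest each enzyme gene (vertical axis, grouped as linker, chondroitin sulfate CS and heparan sulfate HS) in each table; bars to the right count regions higher in the first-named group and bars to the left regions lower in it. The surgery table has mostly higher regions (28 of 35), both mutant tables mostly lower ones (55 of 70 and 62 of 78), and Chsy3 has only higher regions in all 3 tables.

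After DMM in wild-type cartilage, 28 of the 35 member regions were higher and 7 were lower than in sham, beside 93.2% higher and 6.53% lower over all regions of the table. Chondroitin sulfate genes had 13 higher and 1 lower region: Csgalnact1 6 and 1, Chst11 3 and 0, Chsy1 2 and 0, Chsy3 2 and 0, and Chst3 none. Heparan sulfate genes had 11 higher and 6 lower regions: Ext1 6 and 1, Sulf1 3 and 0, Ndst1 1 and 3, and Sulf2 1 and 2. Xylt1 had 4 higher regions and no lower one. The median log2 ratio of WT DMM to WT sham, with 1 added to each mean, was 1.17 over the 28 higher member regions and 1.15 over all higher regions of the table, and -0.66 over the 7 lower members and -0.83 over all lower regions.

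Higher and lower member regions lay at different levels. The 28 higher regions had a median mean of 7.92 normalized counts in WT DMM and 3.14 in WT sham, and none had a sham mean above 18.3. The 7 lower regions had a median of 47.6 in WT DMM and 75.8 in WT sham, and 6 of them had a sham mean of at least 51.4. The same order held over all regions, with sham medians of 2.77 for higher and 61.8 for lower rows.

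At an Ext1 region in the gene (chr15:53313201-53313540) the WT DMM libraries gave 0, 10.7 and 16.7 normalized counts and the WT sham libraries 1.92, 2.15 and 2.22. The means were 9.11 ± 8.44 and 2.1 ± 0.157 (SD, n = 3 each), 4.34-fold apart, with an adjusted p of 0.000264 in the authors' deposited table. Both read WT DMM libraries lay above every sham library, while the nearly empty library at 0 lay below them. At the Ndst1 row of smallest p (chr18:60728001-60728280) the values were 0, 6.67 and 15.6 in WT DMM and 1.60, 2.86 and 1.54 in WT sham. For Sulf1 (chr1:12752221-12752460) they were 0, 9.34 and 14.6 against 2.88, 3.58 and 1.20. In these heparan sulfate rows the same arrangement recurred, with the groups apart once the nearly empty library was set aside.

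Among the chondroitin sulfate genes, Chsy3 (chr18:59299601-59299880) had 0, 16.0 and 21.9 in WT DMM against 3.20, 5.01 and 5.98 in sham. Chsy1, whose only 2 regions in any table were in this comparison, had 0, 41.4 and 44.8 against 16.0, 21.5 and 17.4 at chr7:66102741-66102940, below the gene. Its fold of 1.57 was the smallest among the rows of smallest p of the genes that were higher. At the Chst11 row (chr10:83062201-83062440) the values were 0, 6.67 and 18.7 against 4.16, 4.29 and 1.88, and at the Xylt1 row (chr7:117445981-117446260) 0, 5.34 and 16.7 against 2.24, 4.29 and 2.05. Both depended on the third-listed WT DMM library: without it the WT DMM means were 3.34 and 2.67, below sham means of 3.44 and 2.86.

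The Csgalnact1 row of smallest p (chr8:68571181-68571560) rested on that library too. WT DMM gave 0, 10.7 and 62.5 and WT sham 10.2, 11.5 and 8.72, so a single WT DMM library stood apart from 5 others that did not exceed 11.5. Without the third-listed library the WT DMM mean was 5.34 against 10.1 in sham. Of the 28 higher member regions, 8 turned direction without that library and 20 kept it.

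The lower rows of Ndst1, Sulf2 and Csgalnact1 held the highest levels of the members in this comparison. At Ndst1 chr18:60705261-60705540 the WT DMM libraries gave 0, 90.7 and 52.1 and the sham libraries 79.4, 75.1 and 73.0. At Sulf2 chr2:166132501-166132700 they gave 0, 61.4 and 29.2 against 54.5, 47.9 and 51.8, and at Csgalnact1 chr8:68683061-68683260 0, 98.7 and 73.9 against 89.1, 102 and 99.6. In each, 1 of the read WT DMM libraries lay within or above the sham values. Without the nearly empty library the WT DMM means were 71.4, 45.3 and 86.3 beside sham means of 75.8, 51.4 and 96.8. At Ndst1 chr18:60709861-60710080 the direction turned, to 87.6 in WT DMM against 84.7 in sham.

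Over the 35 member regions the libraries of the groups did not overlap in 1, beside 2.7% of all listed regions (called and not overlapping). That region was the lower Ext1 row at chr15:52899161-52899440, far below the gene, where WT DMM gave 0, 1.33 and 2.08 and WT sham 50.6, 2.15 and 3.08; the first-listed sham library alone was high. Without the nearly empty library, the groups did not overlap in 26 of 35 member regions, 25 of them higher in WT DMM and 1 lower, beside 81.5% of all listed regions. With all libraries, limma on the log2 scale called no member region and 0.0% of all regions at an adjusted p under 0.05; at an unadjusted p under 0.05 it passed 0 member regions and 335 regions in all. Without the nearly empty library limma called 25 of the 35 member regions, all higher in WT DMM, beside 74.3% of all regions (32240, of which 31801 were higher). Every row had already passed the authors' p on the same libraries, so this count is no separate check.

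**Figure D2:**
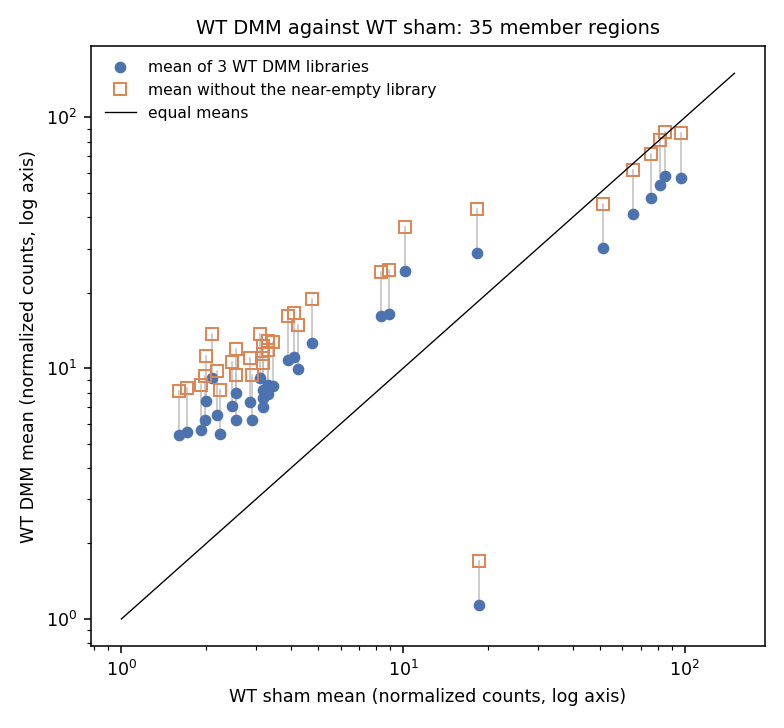
Mean normalized count of WT DMM (vertical, log axis) against WT sham (horizontal, log axis) for the 35 member regions; circles use all 3 WT DMM libraries, open squares leave out the nearly empty one, and the line marks equal means. Of the 7 regions below the line, 6 have sham means from 51.4 to 96.8 and approach or cross it without that library.

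Against WT DMM, the MUT DMM samples were lower in 55 of the 70 member regions and higher in 15, beside 64.7% lower and 34.2% higher over all regions of the table. Chondroitin sulfate genes had 30 lower and 8 higher regions: Chst11 16 and 2, Csgalnact1 9 and 2, Chst3 5 and 0, and Chsy3 0 and 4. Heparan sulfate genes had 20 lower and 7 higher regions: Ext1 8 and 5, Sulf2 7 and 1, Ndst1 3 and 1, and Sulf1 2 and 0. Xylt1 had 5 lower regions, and Chsy1 had none listed. For the 55 lower member regions the median of the means was 3.06 normalized counts in the mutant and 8.90 in wild type, and for the 15 higher ones 31.4 and 14.7.

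Chst11 had 18 regions, the most of any member in this comparison. Per 100 kb of gene length it held 8.51 inside the gene, beside 8.56 for Sulf2. Its row of smallest p (chr10:83008381-83008760), inside the gene, gave 9.59 and 7.11 in MUT DMM and 19.1, 18.1 and 30.4 in WT DMM. The means were 8.35 ± 1.75 (SD, n = 2) and 22.5 ± 6.87 (SD, n = 3), 2.70-fold apart, and the groups did not overlap. The authors' deposited table gave this row an adjusted p of 1.78e-07, the smallest of the members in this comparison; limma's adjusted p was 0.729. The reads behind the values were 41 and 2 in MUT DMM and 2, 24 and 50 in WT DMM, so the shallow MUT DMM library and the nearly empty WT DMM library each rested on 2 reads.

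The start of Chst11 went the other way from its body. The region at chr10:82984881-82985400, which covered 154 bases of the printed promoter window, gave 51.5 and 46.2 in MUT DMM against 0, 43.6 and 27.4 in WT DMM, and the groups did not overlap. The next region (chr10:82985541-82985760), which touched the last 6 bases of that window, gave 32.3 and 28.4 against 0, 45.9 and 10.4. Here the groups overlapped because the second-listed WT DMM library was the highest. Without the nearly empty library the means at this next region were close, 30.4 in MUT DMM and 28.1 in WT DMM. The other 16 Chst11 regions, all lower in MUT DMM, began 7141 bases or more inside the gene bound. At both regions at the start the nearly empty library was at 0, and limma's adjusted p at the first of them was also 0.729.

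Sulf2 showed the same arrangement. The region over its promoter window (chr2:166155301-166155600, 235 bases shared) gave 40.0 and 42.7 in MUT DMM against 0, 24.1 and 20.1 in WT DMM; the means were 41.3 ± 1.87 and 14.7 ± 12.9, and the groups did not overlap. The other 7 Sulf2 regions were lower in MUT DMM. At the row of smallest p (chr2:166110101-166110320) MUT DMM gave 5.85 and 10.7 and WT DMM 0, 14.3 and 28.6. Without the third-listed WT DMM library that row turned, to 8.26 against 7.15. Over all called regions of the comparison, 84.2% of those over a promoter window (2433 of 2891) were higher in MUT DMM, against 32.3% of those over no window, so the Chst11 and Sulf2 promoter rows followed the direction of most promoter rows in the table.

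Of the 5 higher Ext1 rows, 2 lay at its upper-coordinate bound, where no promoter window was given. At chr15:53345541-53345760, which ends 423 bases inside the bound, MUT DMM gave 15.4 and 32.0 and WT DMM 0, 6.77 and 2.44, 7.72-fold apart by the means. At chr15:53346281-53346480, which starts 98 bases beyond it, the values were 26.4 and 21.3 against 0, 21.8 and 14.0, and the groups overlapped. The other higher Ext1 rows lay away from that bound, at chr15:53039381-53039680 and chr15:53043861-53044160 below the gene and chr15:53135881-53136120 inside it. Their groups did not overlap, with the nearest libraries 13.58, 10.58 and 8.34 normalized counts apart. Of the 7 member regions within 1 kb of a RefSeq gene bound, at either end, 4 were higher and 3 lower. The 3 lower ones were 2 regions of Chst3 and 1 of Csgalnact1. Of the 63 farther away, 11 were higher and 52 lower. No such split was made over all regions, so it cannot be read as particular to these genes.

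**Figure D3:**
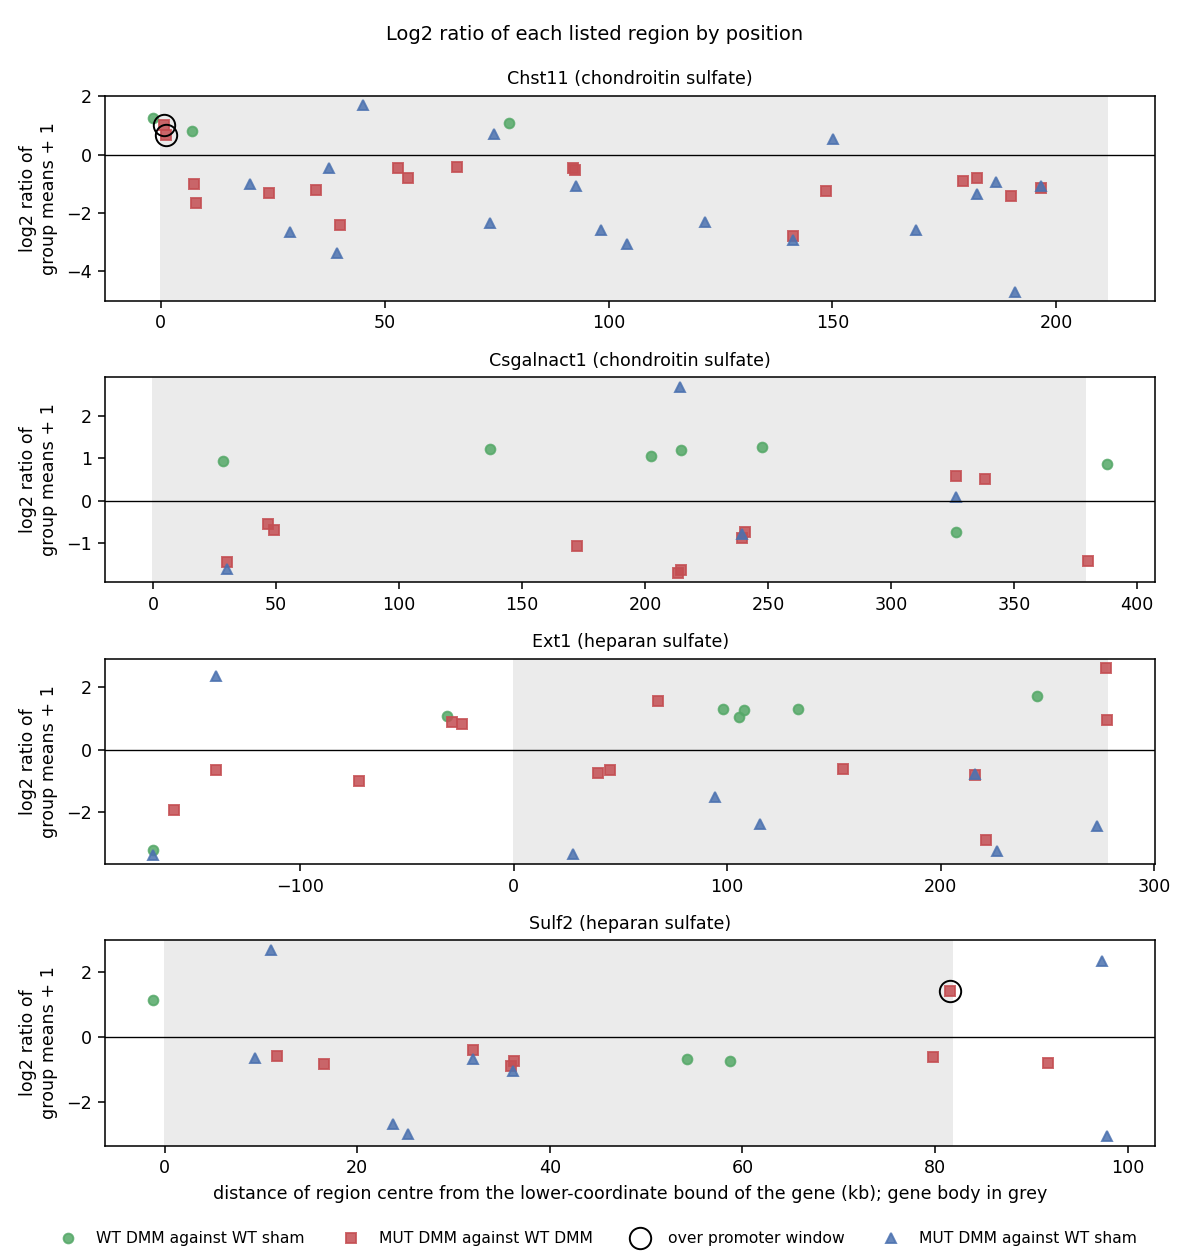
Log2 ratio of the group means, with 1 added to each (vertical), against the distance in kb of each listed region's centre from the lower-coordinate bound of the gene (horizontal; gene body grey), for Chst11, Csgalnact1, Ext1 and Sulf2; colours and shapes mark the 3 comparisons and rings the 3 regions over a promoter window. In MUT DMM against WT DMM the ringed regions and those at the upper bound of Ext1 lie above 0, while the other squares inside Chst11 and Sulf2 lie below it. Some Ext1 squares away from that bound also lie above 0.

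Inside Ext1 the row of smallest p (chr15:53283901-53284280) was lower, with 25.0 and 28.4 in MUT DMM against 28.7, 50.4 and 63.3 in WT DMM; the nearest libraries of the groups were 0.25 normalized counts apart. Ndst1 was higher at chr18:60689101-60689340, with 20.8 and 28.4 against 0, 9.78 and 6.09, and was lower at 3 rows toward its other end. Sulf1 was lower at its row of smallest p (chr1:12750681-12750880), with 1.87 and 3.55 against 0, 8.27 and 9.13. Its other row (chr1:12704461-12704720), read in every library, gave 21.5 and 14.2 against 19.1, 36.9 and 34.7. In both Sulf1 rows the nearly empty library lay at or below a MUT DMM library and the other WT DMM libraries above both.

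Chsy3 was the only member with regions that were all higher in MUT DMM, 4 of 4. The region of smallest p (chr18:59454461-59454780), beyond the upper bound of the gene, gave 32.3 and 53.3 in MUT DMM against 0, 14.3 and 13.4 in WT DMM, 4.64-fold apart by the means. In all 4 rows the MUT DMM libraries lay above every WT DMM library. The row at chr18:59427201-59427500 is the one where the nearly empty library had reads: MUT DMM gave 23.6 and 39.1 and WT DMM 19.1, 18.1 and 8.52.

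Chst3, the sulfotransferase for the position that Chst11 does not use, was lower in all 5 of its regions. At its row of smallest p (chr10:60176061-60176440) the values were 1.17 and 7.11 in MUT DMM against 9.56, 8.27 and 17.1 in WT DMM. At chr10:60195961-60196340, inside the gene and read in every library, they were 22.5 and 21.3 against 28.7, 39.9 and 46.9. At chr10:60180821-60181200 both MUT DMM libraries were at 0 and WT DMM gave 9.56, 3.76 and 4.87, from 1, 5 and 8 reads. The groups did not overlap in these 3 rows. The limit that 0 reads allow in the shallow MUT DMM library, 10.7, was above the WT DMM mean of 6.06 at the last row, so its lower level there rests on the repeated MUT DMM library, for which the limit was 0.702.

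The Xylt1 row of smallest p (chr7:117268201-117268400), below the gene, gave 0.23 and 0 in MUT DMM against 9.56, 1.5 and 3.65 in WT DMM, from 1 and 0 reads against 1, 2 and 6. The 5 Xylt1 rows were all at low levels, with MUT DMM means from 0.115 to 4.96. The Csgalnact1 row of smallest p was the region that had been higher after DMM (chr8:68571181-68571560), with 4.21 and 3.55 against 0, 6.02 and 36.5. Again the third-listed WT DMM library was the high one, and without it the direction turned, to 3.88 in MUT DMM against 3.01 in WT DMM.

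**Figure D4:**
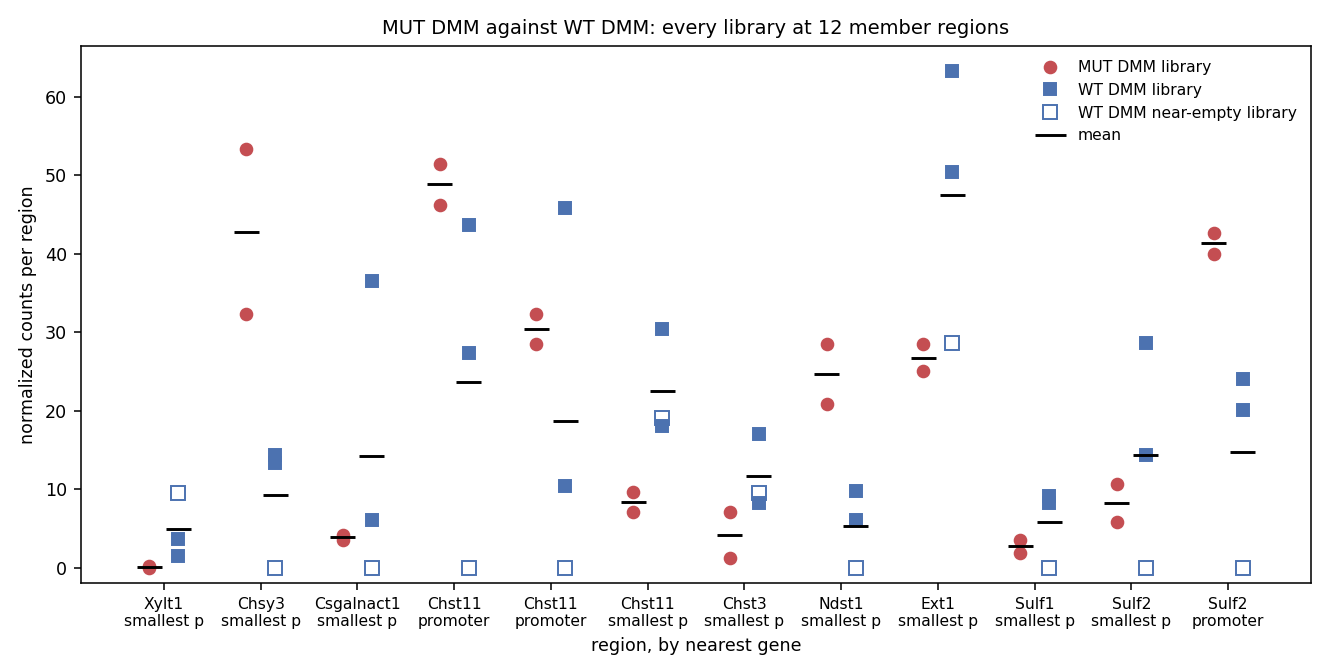
Normalized counts (vertical) of each library at 12 member regions of MUT DMM against WT DMM (horizontal): the region of smallest p of each of 9 genes and the 3 regions over a promoter window; circles are MUT DMM, squares WT DMM, open squares the nearly empty WT DMM library, and bars the means. The open squares lie at 0 in 8 of the 12 regions, and both Csgalnact1 MUT DMM libraries lie near 4 while a single WT DMM library reaches 36.5.

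Over the 70 member regions the groups did not overlap in 26 (11 higher and 15 lower in MUT DMM), beside 41.4% of all listed regions. Without the nearly empty library they did not overlap in 57, beside 77.0%, 12 higher and 45 lower. Leaving out the third-listed WT DMM library turned the direction of 11 among the 55 lower regions. The shallow MUT DMM library had 0 reads in 8 of the 55 lower regions and 1 read in 26. By limma no member region passed an adjusted p under 0.05, beside 0.0% of all regions, while 4 member regions and 4938 regions in all had an unadjusted p under 0.05.

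Against WT sham, the MUT DMM samples were lower in 62 of 78 member regions and higher in 16, beside 56.1% lower and 43.2% higher over all regions of the table. This comparison joins genotype and surgery and cannot tell them apart. Chondroitin sulfate genes had 22 lower and 10 higher regions: Chst11 15 and 3, Chst3 5 and 1, Csgalnact1 2 and 2, and Chsy3 0 and 4. Heparan sulfate genes had 22 lower and 4 higher: Ndst1 8 and 0, Ext1 7 and 1, Sulf2 6 and 2, and Sulf1 1 and 1. Xylt1 had 18 lower and 2 higher regions, and Chsy1 none. The lower member regions had median levels of 0.735 (MUT DMM) and 9.93 (WT sham) normalized counts, beside 0.735 and 10.04 over all lower regions of the table.

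Xylt1 held the most regions of any member here, 20, although it had 5 or fewer in each of the other comparisons. Per 100 kb of gene length, its regions inside the gene numbered 4.88. That was below Ndst1 (12.4), Chst11 (8.51), Sulf2 (7.34) and Chst3 (4.93) and above the other members. At its row of smallest p (chr7:117384761-117384960), inside the gene, MUT DMM gave 1.47 and 0 and WT sham 10.1, 10.4 and 8.88, from 2 and 0 reads against 19, 9 and 32. The means were 0.735 ± 1.04 and 9.79 ± 0.809, 13.3-fold apart, and limma's adjusted p was 0.00829. Both MUT DMM libraries were at 0 in 11 of the 18 lower Xylt1 regions, whose WT sham means ran from 3.97 to 8.24. The repeated MUT DMM library would have allowed up to 2.21 normalized counts at 0 reads, which is below each of those sham means, and the shallow library up to 28.3, which is above them. At chr7:117337881-117338260, below the gene, both groups were well read and overlapped, with 72.2 and 94.5 against 244, 118 and 39.4. Without the first-listed sham library that row turned, to 83.3 against 78.7.

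Over all members both MUT DMM libraries were at 0 in 22 of the 62 lower regions (35.5%), against 37.6% of all lower regions of the table. Of these 22, 11 belonged to Xylt1, 5 to chondroitin sulfate genes and 6 to heparan sulfate genes. The shallow MUT DMM library was at 0 in 41 of the 62, and in 36 of those the WT sham mean was under the limit of 28.3 that 0 reads allow.

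Some of the lower member regions had reads in every library. At Sulf2 chr2:166109781-166110320 MUT DMM gave 24.3 and 37.8 and WT sham 61.5, 70.6 and 61.0, 2.07-fold apart by the means; the authors' deposited table gave an adjusted p of 3.43e-07 and limma 0.0535. At Ndst1 chr18:60733021-60733260 the values were 70.7 and 56.7 against 102, 98.4 and 91.0, a fold of 1.53. At Chst11 chr10:83166601-83166860 they were 2.95 and 9.45 against 15.9, 17.4 and 19.4. In all 3 rows the MUT DMM libraries lay below every sham library, and limma's adjusted p of 0.0568 at the Chst11 row and 0.130 at the Ndst1 row did not pass the threshold.

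All 8 Ndst1 regions were lower in MUT DMM than in WT sham, with sham means from 6.15 to 133 normalized counts. At chr18:60722321-60722880 the sham libraries were within a narrow range, 90.7, 91.5 and 90.4, and MUT DMM gave 47.9 and 9.45, the latter from 1 read. The region at chr18:60709561-60709840 was listed as lower both here, with 106 and 37.8 against 125, 135 and 140, and in WT DMM against WT sham, with 0, 78.7 and 83.3 against 75.3, 83.7 and 86.3. The comparisons share the sham libraries. Without the nearly empty library the WT DMM mean at that region was 81.0 beside a sham mean of 81.8.

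Chst3 at chr10:60160361-60160800 gave 19.9 and 28.3 in MUT DMM against 28.6, 90.3 and 86.3 in WT sham, with the first-listed sham library close to the mutant values. Ext1 at chr15:52899161-52899540 gave 4.42 and 0 against 84.8, 4.63 and 5.55, so the row again rested on the first-listed sham library. A Chst11 row (chr10:83175101-83175480) had the same form, with 1.47 and 0 against 113, 13.9 and 5.55. In both, the MUT DMM libraries still lay below each sham library.

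The 16 higher rows were spread over 8 genes. Chsy3 gave 4, among them a region ending 260 bases below the lower bound of the gene (chr18:59174781-59175080), with 69.2 and 123 in MUT DMM against 48.3, 45.2 and 53.5 in WT sham. Sulf1 at chr1:12814421-12814640 gave 104 and 75.6 against 74.8, 62.5 and 71.6, where the nearest libraries of the groups were 0.81 apart. At Csgalnact1 chr8:68683181-68683380 the values were 179 and 142 against 151, 161 and 140, the groups overlapped and the fold was 1.06, although the authors' deposited table gave an adjusted p of 0.00126. Regions of Csgalnact1 and Sulf2 that were at 0 in all 3 sham libraries had 2 reads and 1 read in the MUT DMM libraries.

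The groups did not overlap in 64 of the 78 member regions, beside 81.6% of all listed regions, 11 higher and 53 lower in MUT DMM. By limma, 41 member regions passed an adjusted p under 0.05, beside 45.4% of all regions, 37 lower and 4 higher. The lower ones were 15 of Xylt1, 8 of Chst11, 4 of Ndst1, 3 each of Ext1 and Sulf2, 2 of Chst3 and 1 each of Csgalnact1 and Sulf1. The higher ones were 2 of Chsy3 and 1 each of Csgalnact1 and Sulf2; the Csgalnact1 and Sulf2 rows are those at 0 in all sham libraries with 2 reads and 1 read in MUT DMM (adjusted p of 0.0384 each by limma). None of the higher member calls was left without any 1 of the 3 sham libraries. Over all regions the higher calls fell from 4621 to 1096, 529 and 385 without the first-, second- and third-listed sham library. Since every row had already passed the authors' p, these counts are no separate check. Among the rows whose mean over both groups was at least 5 normalized counts, limma called 0 of 50 member regions, with 22 at an unadjusted p under 0.05. It called 0.0% of all 50878 regions that passed this filter, with 17573 at an unadjusted p under 0.05.

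Member regions overlapped between the mutant tables in 19 of 70 and 18 of 78 rows, and the tables share the MUT DMM libraries. Chsy3 was higher in both at 3 places beyond the gene. At the one of largest fold, MUT DMM gave 102 and 142 against sham values of 53.0, 26.6 and 46.6, a fold of 2.89 with a limma adjusted p of 0.0373, beside the 4.64-fold difference from WT DMM. Chst11 was lower in both at 4 places. One of them, near chr10:83125581-83125860, was at 0 in both MUT DMM libraries in both tables, with 9.56, 2.26 and 6.09 in WT DMM and 3.71, 9.26 and 7.21 in WT sham. Chst3 was lower in both at chr10:60160361-60160800, where WT DMM gave 9.56, 42.9 and 39.0 against MUT DMM values of 6.32 and 10.7 on that table's scale. Csgalnact1 at chr8:68386561-68386760 was lower in both, with 5.15 and 3.55 against 0, 14.3 and 26.2 in WT DMM, and 16.2 and 9.45 against 37.7, 49.8 and 36.6 in WT sham. An Ext1 place below the gene went opposite ways: at chr15:52928661-52928940 MUT DMM gave 0.70 and 3.55 against 0, 4.51 and 7.31 in WT DMM, and at chr15:52928561-52928780, which shares part of it, 2.21 and 18.9 against 1.59, 1.16 and 1.11 in WT sham. limma's adjusted p was 0.976 at the former and 0.114 at the latter. These places were chosen by the overlap itself, so their directions are a description.

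The listed regions were about as dense in these genes as elsewhere: per 100 kb of RefSeq gene length the members held 1.49, 2.98 and 3.31 regions in the 3 comparisons, in the order above, and all 21900 protein-coding genes 1.72, 2.98 and 3.14. Another 64 genes of glycosaminoglycan biology, for linker, chain and precursor synthesis, degradation, hyaluronan and keratan sulfate, had 138 higher and 9 lower regions after DMM in wild type, 74 and 126 in MUT DMM against WT DMM, and 88 and 123 in MUT DMM against WT sham. Over all regions of these 3 comparisons, 93.2% were higher in the first, and 64.7% and 56.1% were lower in the others. Of the 64 genes, 43 had a higher and 9 a lower region in the first, 39 and 45 in the second, and 33 and 45 in the third. The genes with most regions included Hs6st3, a heparan sulfate sulfotransferase, with 16 higher and 0 lower after DMM and 13 and 6 in MUT DMM against WT sham. Ust, which sulfates uronic acids of chondroitin and dermatan sulfate, had 2 higher and 13 lower in MUT DMM against WT DMM. Hpse2, of the degradation list, had the most there, with 4 higher and 12 lower. Counts of single genes among the 64 were not scaled by gene length.

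Pooled over 40 marker genes of blood, muscle, endothelial, fibroblast and fat cells, 67 regions were higher and 10 lower after DMM, 43 and 92 in MUT DMM against WT DMM, and 62 and 114 in MUT DMM against WT sham. That is 87.0% higher in the first, beside 93.2% of all regions, and 68.1% and 64.8% lower in the others, beside 64.7% and 56.1%. Muscle markers differed from the pool in MUT DMM against WT DMM, with 11 higher and 7 lower regions. In these comparisons 27, 23 and 24 of the 40 markers had a higher region and 8, 23 and 32 a lower one. Regions near 12 chondrocyte markers numbered 16 higher and 2 lower, 12 and 21, and 18 and 20. Summed over its listed regions, the endothelial list, the largest, ran from 0 to 777 normalized counts over the WT DMM libraries and from 334 to 379 over WT sham; from 856 to 878 in MUT DMM and 354 to 1344 in WT DMM; and from 1301 to 1710 in MUT DMM and 1338 to 1832 in WT sham. Sums that did not overlap between groups were lower in MUT DMM than in WT sham for the fibroblast and fat list (327 to 435 against 565 to 671) and the muscle list (548 to 616 against 644 to 677), and higher for the chondrocyte list (1624 to 1672 against 1478 to 1565). Muscle sums were also higher in MUT DMM (340 to 345) than in WT DMM (38.2 to 276), where the lowest is the nearly empty library. The remaining sums overlapped between groups. The summed rows had been listed because their groups differed, so sums that do not overlap are no separate check. The chondrocyte sum was higher in MUT DMM than in WT sham although 18 of its regions were higher and 20 lower. Of the defining chondrocyte markers, Acan and Sox9 had no listed region after DMM in wild type and Comp had none in any table. The labelled tissue cannot be checked from tables that list only differing regions, and the part of cell makeup in the member results was not tested.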

How the data were processed

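Cartilage DNA was read by reduced representation hydroxymethylation profiling with 15 PCR cycles, per the labels' protocols. The submitters' processing notes name the mm10 build with HISAT2 2.1.0, Trim Galore 0.5.0, bcl2fastq 2.20.0, bedtools and SAMtools. For the calling and scaling of regions, tools are not given in the sources used here. Per the file headers, the authors deposited normalized counts of 3 libraries joined in a cell, group means of that count signal, and p-values per region and best 200-base window. The values were whole multiples of 1 read in at least 99.9954% of regions, within 0.02 normalized counts, which gave the reads; no count test was run on them because region totals are partial. Those listed-region reads ran from 4726 to 7860851 per library and table.

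Means and SDs used distinct libraries. limma 3.58.1 (R 4.3.3) was fitted on log2(value + 1) over all rows of each table with Benjamini-Hochberg adjustment. A run on simulated data gave every library the same spread, with none nearly empty. That run therefore does not show how limma performs on these libraries. Promoter windows and gene bounds came from RefSeq GRCm38.p6. The members and gene lists were chosen with earlier results of these data known. For each gene and table the row of smallest p was named, with rows that overlap between tables and rows read in every library where a gene had 3 or fewer; of these 70 rows those that add values are given. Whether samples came from separate animals is not stated beyond the label of biological replicates. Alternatives were stricter p thresholds, gene bounds, a level filter, pseudocounts, the repeated entry kept, and each library left out.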

Additional observations from a re-analysis of the deposited data

How the results depend on the processing

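Of 95 alternative counts, 82 stayed within 1.5 times the value reported. The counts that moved farther are given here, and a direction left unnamed at a setting stayed within that factor. At an adjusted p under 0.001, WT DMM against WT sham kept 8 higher and 0 lower member regions, MUT DMM against WT DMM 8 higher, and MUT DMM against WT sham 3 higher and 31 lower. Shares over all regions at that threshold were not computed. With a mean of at least 5 normalized counts the same comparisons kept 18 higher, 30 lower and 36 lower, and limma called 0 in the last. Over both directions that filter kept 25 of 35, 45 of 70 and 50 of 78 member regions. Over all regions it kept 25414 of 43378, 43047 of 65969 and 50878 of 72486. Taking regions inside RefSeq gene bounds left 9 higher in MUT DMM against WT sham. Leaving out each library, limma's member calls ran from 0 to 25 in WT DMM against WT sham and from 26 to 54 in MUT DMM against WT sham, where the calls were 26 without the second-listed and 27 without the third-listed sham library.

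Of 70 named regions, 61 kept their direction under every library left out. The log2 ratios of the other 9 ran from -0.073 to 1.64 at Xylt1 117445981, -0.81 to 1.75 at Csgalnact1 68571181 and -0.036 to 1.62 at Chst11 83062201 in WT DMM against WT sham. In MUT DMM against WT DMM they ran from -2.19 to 0.28 at Csgalnact1 68571181, -0.0026 to 1.13 at Csgalnact1 68683061, -1.58 to 0.50 at Chst11 83076881 and -1.28 to 0.18 at Sulf2 166110101. In MUT DMM against WT sham they ran from -1.11 to 0.080 at Xylt1 117337881 and -0.087 to 0.25 at Csgalnact1 68683181. In limma fits that left 1 library in a group, it was assumed to vary like the others, so calls of those fits are not given. The cause of each turn was not tested. No paired analysis was possible because the joined cells carry no replicate number. Shallow libraries limit the levels that can be told from 0.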
